A study of Homo sapiens with 15 samples.

Results

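The MYC, MAX and MXD network comprised 9 genes here: MYC, MAX, MXD1, MXI1, MXD3, MXD4, MNT, MLX and MGA. Members were chosen by gene symbol, and each of the 9 was measured by 1 probe set that the platform's probe table pairs with that symbol alone. They were 9 of 18377 genes with such a probe set and 9 of the 16005 genes tested, and all 9 lay above the dim level (each array's 25th percentile, taken over its probe sets) on all 15 arrays. RNA came from A549, a human lung adenocarcinoma cell line, 1 array per culture and 3 cultures per group. The groups were hypoxia with BB2-125, hypoxia with BB2-162, hypoxia with BB2-282, hypoxic vehicle and normoxic vehicle. Each compound, known by a code name and described by the submitters as a transcriptional inhibitor, was used at 10 µM. All cultures, vehicles included, held 0.1% DMSO, and hypoxia was produced in a gas-generating pouch for 42 h after 6 h with compound or vehicle. The labels do not spell out how long the normoxic cultures were kept after the 6 h. No compound was measured in normoxia, so an effect on the hypoxic response cannot be told apart from a general effect of the compound. The series asks how these compounds alter transcription driven by hypoxia-inducible factor (HIF).

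MYC is a transcription factor that binds DNA only as a heterodimer with MAX, at E-boxes with the core CACGTG, where it activates genes of growth, nucleotide synthesis and ribosome production. MXD1, MXI1 (also called MXD2), MXD3, MXD4, MNT and MGA compete with MYC for MAX; the MXD proteins and MNT bring SIN3 corepressors to the same sites. MLX forms a parallel branch, pairing with the glucose sensors MondoA (gene MLXIP) and ChREBP (gene MLXIPL), and it can also pair with some MXD proteins and MNT. In other cells HIF-1, a form of HIF, is known to induce MXI1 and to oppose MYC.

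Array medians of intensity were between 74.91 and 84.6. The array of BB2-162 replicate 1 deviated most from its own group: the root mean square difference from the group mean over all probe sets was 0.227 on the log2 scale there, against 0.111 to 0.178 on the other arrays. Counts and member results that involve BB2-162 are therefore given with and without it, except the search for genes of similar profile. Single genes of other lists are given with all arrays. All 9 markers of epithelial cells and of A549 were above the dim level on all 15 arrays. Their summed intensity was 23980 to 26480 with BB2-125, 17680 to 22300 with BB2-162 and 14920 to 16650 with BB2-282, against 17100 to 18860 in the hypoxic vehicle and 38840 to 42300 in the normoxic vehicle, and its part in the results was not tested. Against normoxia, 6 of the 9 were called lower with BB2-125, 7 with BB2-162, 8 with BB2-282 and 7 in the hypoxic vehicle. In each comparison 1 was called higher. Without BB2-162 replicate 1 the BB2-162 counts were 8 lower and 1 higher. Of all genes tested 30.5%, 34.4%, 31.4% and 29.4% were called lower. Of the markers of other cell types, 4 of 6 for leukocytes, 3 of 5 for fibroblasts and 2 of 5 for endothelium were also above the dim level on all 15 arrays, whereas PTPRC and LYZ (leukocytes) and DCN and LUM (fibroblasts) were above it on none. Against the normoxic vehicle, leukocyte markers called higher numbered 3 of 4 tested with BB2-125, 3 with BB2-162, 2 with BB2-282 and 1 in the hypoxic vehicle. The shares of all genes tested that were called higher in these comparisons were 31.5%, 42.4%, 33.4% and 28.2%. Endothelial markers called higher numbered 3 of 5, 4, 2 and 1, and fibroblast markers 0 of 3, 2, 0 and 0 by limma, and likewise 0, 2, 0 and 0 at an unadjusted p under 0.05. Without BB2-162 replicate 1, the BB2-162 counts were 3 leukocyte, 5 endothelial and 3 fibroblast markers called higher. The summed intensity of the leukocyte list was 300.4 to 314.2 with BB2-125, 311.4 to 326.1 with BB2-162 and 277.9 to 287.6 with BB2-282, against 252.3 to 291.7 in the hypoxic vehicle and 227.6 to 247.7 in the normoxic vehicle, and the part of these markers in the results was not tested. Replicates are named biological in the sample titles with no further detail, so p-values measure the spread between these cultures, which may be technical. In these bulk samples, fewer cells of a kind and less RNA per cell cannot be told apart.

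The promoters of 4 members are shown because they hold the network's own binding letters or the HIF core, and that of MXD1, the member with the largest rise with a compound, because it holds neither. Each is the 250 bases before an annotated RefSeq start (GRCh38.p14), 5′ to 3′ on the gene's strand, with CACGTG and the HIF core ACGTG in capitals. ACGTG was searched on both strands, reads CACGT on the other, and lies inside every CACGTG. The windows are MXI1 at its second of 3 starts (chr10:110209981-110210230, plus strand), MNT (chr17:2401061-2401310, minus), MLX (chr17:42566850-42567099, plus), MXD4 (chr4:2262110-2262359, minus) and MXD1 (chr2:69914859-69915108, plus).
MXI1: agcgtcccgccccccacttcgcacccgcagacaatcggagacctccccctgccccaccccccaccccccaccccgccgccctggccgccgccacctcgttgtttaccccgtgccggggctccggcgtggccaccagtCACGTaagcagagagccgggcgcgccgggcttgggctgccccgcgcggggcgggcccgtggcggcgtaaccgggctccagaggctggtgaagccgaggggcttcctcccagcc
MNT: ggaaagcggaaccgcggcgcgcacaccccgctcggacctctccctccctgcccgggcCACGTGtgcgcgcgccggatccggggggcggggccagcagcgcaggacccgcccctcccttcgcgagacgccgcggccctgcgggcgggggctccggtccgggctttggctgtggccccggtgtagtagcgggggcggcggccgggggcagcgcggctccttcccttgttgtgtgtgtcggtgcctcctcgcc
MLX: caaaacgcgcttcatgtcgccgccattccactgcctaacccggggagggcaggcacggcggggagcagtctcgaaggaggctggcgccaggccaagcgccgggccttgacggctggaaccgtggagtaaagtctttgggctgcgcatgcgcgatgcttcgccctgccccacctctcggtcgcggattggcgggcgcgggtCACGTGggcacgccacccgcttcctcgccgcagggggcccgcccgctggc
MXD4: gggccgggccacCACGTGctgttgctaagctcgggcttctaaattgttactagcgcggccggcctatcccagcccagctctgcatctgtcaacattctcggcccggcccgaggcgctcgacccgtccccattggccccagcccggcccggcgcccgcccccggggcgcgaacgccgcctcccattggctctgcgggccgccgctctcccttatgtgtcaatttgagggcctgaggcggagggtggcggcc
MXD1: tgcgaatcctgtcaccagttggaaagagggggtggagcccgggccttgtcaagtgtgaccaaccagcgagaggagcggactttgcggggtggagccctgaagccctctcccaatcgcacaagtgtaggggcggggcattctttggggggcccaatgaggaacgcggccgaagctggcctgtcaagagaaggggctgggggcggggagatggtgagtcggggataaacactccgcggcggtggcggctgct

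Among the 13 windows of the 8 members examined, CACGTG was found in 3 windows, of 3 members (MNT, MLX and MXD4). It was found in 6.3% of all 35116 windows of this length and 7.7% of all 27305 genes with 1 or more windows. ACGTG on either strand was found in 6 of the 13 windows, of 6 members (those 3, MXI1, MAX and MGA). Its shares were 18.5% of all windows and 21.7% of genes. In MXI1 it lay on the reverse strand at the second start only, beginning 113 bases before it. MXD1 and MXD3 held neither motif, which says only that these letters are not in these windows. A match is a description of the letters and not evidence of binding. The array's probe sets span whole transcripts and do not tell the 3 MXI1 starts apart. The window of MYC was not used here.

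**Figure D1:**
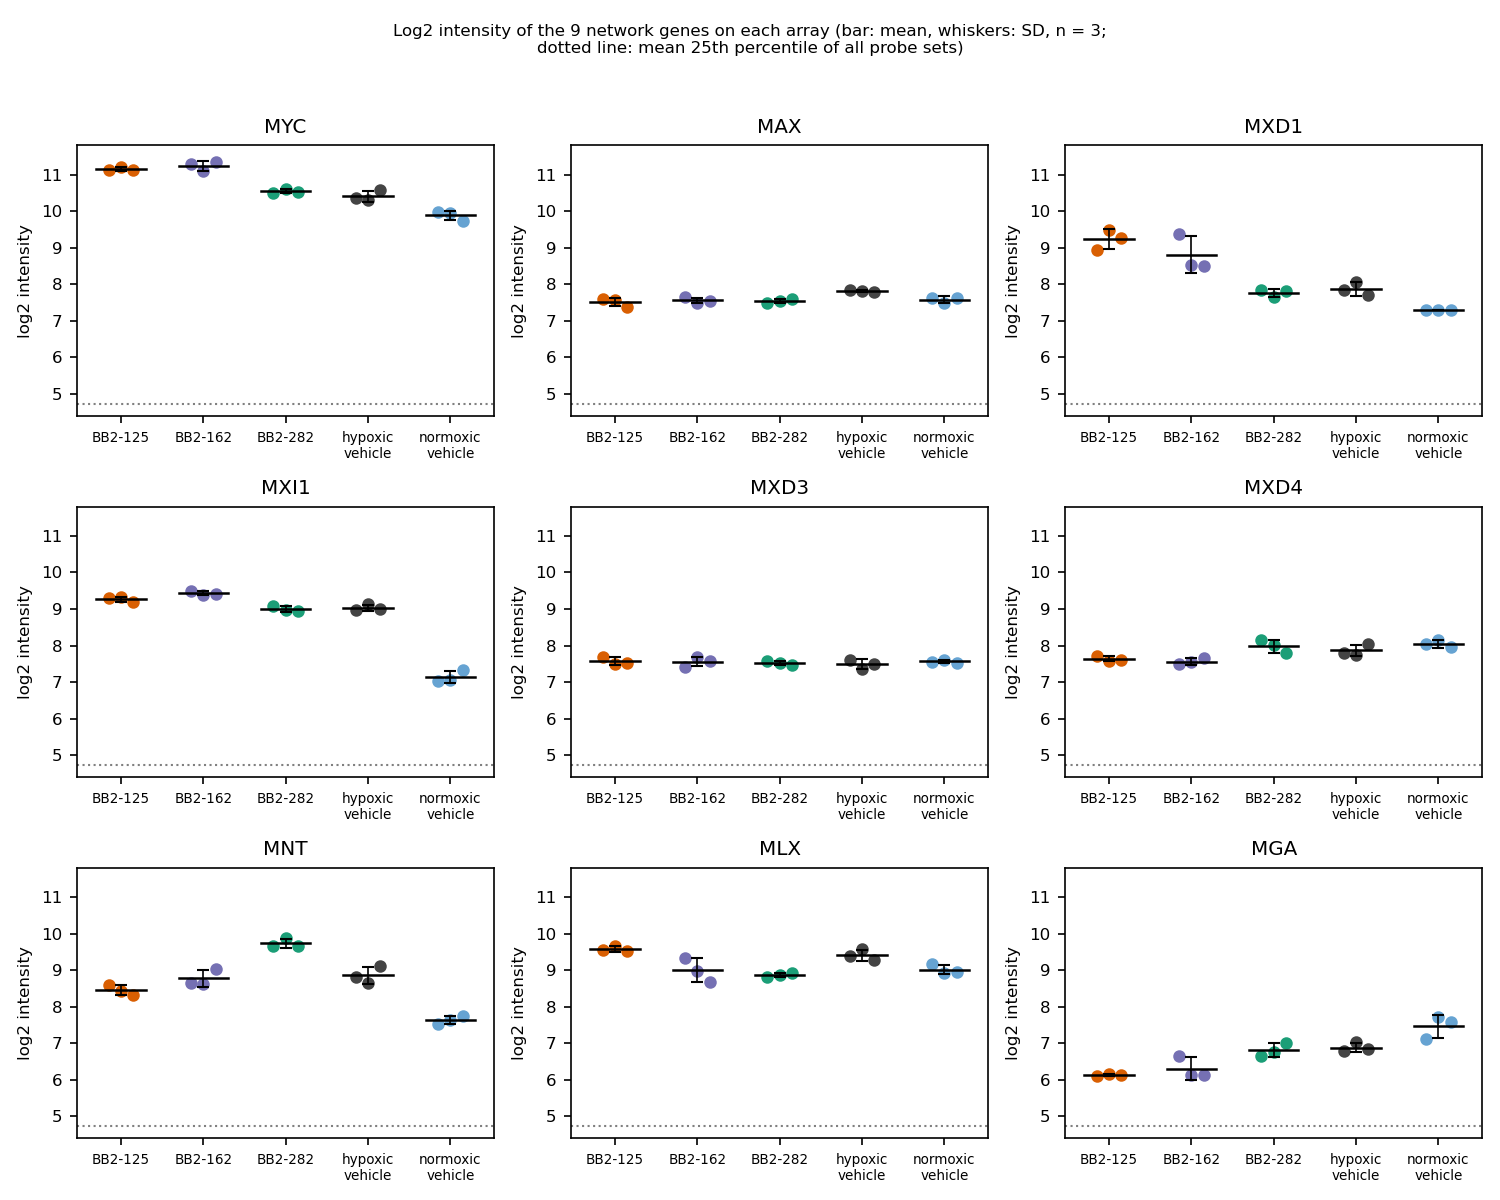
Log2 intensity (vertical axis) of each of the 9 genes on each of the 15 arrays, by group (horizontal axis), with the mean (bar) and SD (whiskers, n = 3); the dotted line is the mean dim level. MXI1 separates the hypoxic groups from normoxia, MYC and MXD1 are highest with BB2-125 and BB2-162, MNT is highest with BB2-282, and MXD3 is nearly level.

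In a limma fit of all 15 arrays, with p-values adjusted by Benjamini-Hochberg over the 16005 genes tested and a gene called at an adjusted p under 0.05, hypoxic vehicle against normoxic vehicle called 7 of the 9 members, 6 higher (MYC, MAX, MXD1, MXI1, MNT and MLX) and 1 lower (MGA). Of all genes tested 57.5% were called, 28.2% higher and 29.4% lower. BB2-125 against the hypoxic vehicle called 5 members, with MYC and MXD1 higher and MAX, MNT and MGA lower, against a background of 28.4% (13.3% higher, 15% lower). BB2-162 called 7 members, with MYC, MXD1 and MXI1 higher and MAX, MXD4, MLX and MGA lower, against 36.1% (15.7% higher, 20.4% lower). BB2-282 called 2 members, MNT higher and MLX lower, against 13.6% (5.65% higher, 7.94% lower). Against the normoxic vehicle, BB2-125 called 5 members higher and 2 lower (62.0% of all genes called, 31.5% higher and 30.5% lower), BB2-162 4 higher and 2 lower (76.8%, 42.4% and 34.4%) and BB2-282 4 higher and 1 lower (64.8%, 33.4% and 31.4%). The median change of the 9 members was 0.39 on the log2 scale in hypoxia, 0.09 with BB2-125, -0.08 with BB2-162 and -0.03 with BB2-282, whereas that of all genes tested was 0.09, 0.02, 0.06 and 0.02. The members' BB2-162 median was -0.02 without BB2-162 replicate 1. The comparisons of hypoxia and of each compound share the hypoxic vehicle arrays. The count of members fell to 4 in hypoxia without hypoxic vehicle replicate 2, to 3 with BB2-125 without hypoxic vehicle replicate 1 or BB2-125 replicate 3, to 4 with BB2-162 without BB2-162 replicate 2, and to 1 with BB2-282 without hypoxic vehicle replicate 2. Without BB2-162 replicate 1 the BB2-162 count was 6 against the hypoxic vehicle and 6 against the normoxic vehicle.

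MYC, the activator of the network, rose in hypoxia and rose further with BB2-125 and BB2-162. Its log2 intensity was 11.13, 11.21 and 11.13 with BB2-125, 11.30, 11.09 and 11.34 with BB2-162 and 10.50, 10.61 and 10.52 with BB2-282, against 10.36, 10.30 and 10.58 in the hypoxic vehicle and 9.97, 9.95 and 9.73 in the normoxic vehicle. All arrays with BB2-125 or BB2-162 lay above all others, the BB2-282 arrays overlapped the hypoxic vehicle, and the normoxic arrays were lowest. In the hypoxic vehicle MYC was 1.45-fold the normoxic vehicle (0.53 ± 0.10 on the log2 scale, SE of the limma change here and below, 3 arrays a group; adjusted p = 2.47e-04). It was 1.68-fold the hypoxic vehicle with BB2-125 (0.75 ± 0.10, adjusted p = 2.36e-05) and 1.78-fold with BB2-162 (0.83 ± 0.10, adjusted p = 7.77e-06). BB2-282 differed from the hypoxic vehicle by 0.13 ± 0.10 (adjusted p = 0.516, 95% interval -0.09 to 0.35). Against normoxia MYC was higher by 1.28 with BB2-125, 1.36 with BB2-162 and 0.66 with BB2-282, each with an adjusted p of 2.07e-05 or lower. The 6 calls of MYC against a vehicle held under each of the 15 alternatives tried per comparison. Of these, the probe set rule could not change its values, because MYC had 1 probe set. Without BB2-162 replicate 1 its BB2-162 rise was 0.80 over the hypoxic vehicle and 1.33 over normoxia.

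MAX, the shared partner of MYC and its antagonists, moved little. Its levels were 7.59, 7.56 and 7.39 with BB2-125, 7.64, 7.49 and 7.55 with BB2-162 and 7.48, 7.55 and 7.61 with BB2-282, against 7.84, 7.80 and 7.79 in the hypoxic vehicle and 7.63, 7.48 and 7.64 in normoxia. The 3 hypoxic vehicle arrays lay above the other 12. MAX was higher in hypoxia by 0.23 ± 0.09 (adjusted p = 0.0384). It was lower than the hypoxic vehicle with BB2-125 by -0.30 ± 0.09 (adjusted p = 0.0192) and with BB2-162 by -0.25 ± 0.09 (adjusted p = 0.0396). With BB2-282 the difference of -0.27 ± 0.09 missed the threshold (adjusted p = 0.0621). It passed with array weights (adjusted p = 0.0117) and with the dim filter at the array median (0.0472). Because all 4 comparisons use the same 3 vehicle arrays, they are not independent, and no compound group differed from normoxia (adjusted p = 0.529, 0.843 and 0.739 for BB2-125, BB2-162 and BB2-282). The hypoxia call of MAX was lost without normoxic vehicle replicate 2 (adjusted p = 0.152) or hypoxic vehicle replicate 1 (0.0954), 2 (0.066) or 3 (0.0636). The BB2-125 call was lost without hypoxic vehicle replicate 1 (0.0606) or BB2-125 replicate 3 (0.11). The BB2-162 call was lost without hypoxic vehicle replicate 1 (0.106), 2 (0.0841) or 3 (0.0563) or BB2-162 replicate 2 (0.124) or 3 (0.0901), and was 0.0209 without BB2-162 replicate 1.

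Of the repressors, MXI1 showed the largest response to low oxygen in the network. Its log2 intensity was 9.29, 9.33 and 9.19 with BB2-125, 9.50, 9.39 and 9.41 with BB2-162 and 9.09, 8.98 and 8.95 with BB2-282, against 8.96, 9.13 and 9.0 in the hypoxic vehicle and 7.04, 7.05 and 7.32 in normoxia. Every hypoxic array exceeded every normoxic one by more than the range within any group. MXI1 was 3.73-fold higher in the hypoxic than in the normoxic vehicle (1.90 ± 0.10, adjusted p = 9.48e-12), which ranked 679th of the 16005 genes by size of change. BB2-162 added 0.40 ± 0.10 (adjusted p = 0.00416; 0.37, adjusted p = 0.00946, without BB2-162 replicate 1). With BB2-125 the difference from the hypoxic vehicle was 0.24 ± 0.10 and did not pass (adjusted p = 0.0855), although the 3 arrays lay above the vehicle's. That difference passed after quantile normalization (adjusted p = 0.0473) and with array weights (0.0443). With BB2-282 it was -0.03 ± 0.10 (adjusted p = 0.912, 95% interval -0.23 to 0.18). With the compounds MXI1 was 3.66-fold (BB2-282) to 4.92-fold (BB2-162) the normoxic level, with an adjusted p of 9.15e-12 or lower for each; without BB2-162 replicate 1 the BB2-162 value was 2.27 on the log2 scale, against 2.30 with all arrays.

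MXD1, which is known for its rise as cells stop dividing and differentiate, rose with BB2-125 and BB2-162. Its levels were 8.94, 9.49 and 9.27 with BB2-125, 9.39, 8.52 and 8.50 with BB2-162 and 7.83, 7.64 and 7.82 with BB2-282, against 7.84, 8.07 and 7.71 in the hypoxic vehicle and 7.30, 7.29 and 7.31 in normoxia. BB2-162 replicate 1 lay well above the other arrays of its group, all BB2-125 and BB2-162 arrays exceeded all others, and the normoxic arrays were lowest and nearly equal. MXD1 was 2.56-fold the hypoxic vehicle with BB2-125 (1.36 ± 0.18, adjusted p = 1.81e-05) and 1.91-fold with BB2-162 (0.93 ± 0.18, adjusted p = 7.73e-04). Without BB2-162 replicate 1 its BB2-162 rise was 0.64 (adjusted p = 0.0012). BB2-282 differed by -0.11 ± 0.18 (adjusted p = 0.803). Hypoxia alone raised MXD1 by 0.57 ± 0.18 (adjusted p = 0.0128), a call lost without hypoxic vehicle replicate 2 (adjusted p = 0.0554). In the BB2-282 cultures it exceeded normoxia by 0.47 ± 0.18 (adjusted p = 0.034), a call lost without normoxic vehicle replicate 1 (0.065), 2 (0.0763) or 3 (0.0676) or BB2-282 replicate 1 (0.0914) or 3 (0.0806) and after median centring (0.0828).

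MXD3 and MXD4 moved least among the repressors. MXD3, known for expression in dividing cells, was called in none of the 10 comparisons between groups (smallest unadjusted p = 0.378; also 0 calls in any alternative). Its group means spanned 0.09 on the log2 scale, wider than those of only 0.1% of genes tested, and its single arrays ran from 7.35 to 7.70. The 95% intervals of its 10 differences lay between -0.29 and 0.30. MXD4 ranged from 7.59 to 7.72 with BB2-125, 7.48 to 7.65 with BB2-162 and 7.80 to 8.14 with BB2-282, against 7.75 to 8.04 in the hypoxic vehicle and 7.95 to 8.15 in normoxia. Its ranges with BB2-125 and BB2-162 lay below those of the other 3 groups. MXD4 was lower with BB2-162 than in the hypoxic vehicle (-0.31 ± 0.11, adjusted p = 0.036) but did not pass with BB2-125 (-0.23 ± 0.11, adjusted p = 0.138), with BB2-282 (0.12 ± 0.11, adjusted p = 0.588) or in hypoxia alone (-0.18 ± 0.11, adjusted p = 0.156). The BB2-162 call was lost without hypoxic vehicle replicate 1 (0.0565) or 3 (0.138) or BB2-162 replicate 1 (0.0708) or 2 (0.0849). Against normoxia MXD4 fell by 0.41 with BB2-125 (adjusted p = 0.00332) and by 0.49 with BB2-162 (adjusted p = 6.19e-04), and without BB2-162 replicate 1 it fell by 0.45 (adjusted p = 0.00229). Both calls were lost after quantile normalization (adjusted p = 0.114 and 0.0599).

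MNT, a broadly expressed antagonist of MYC, was the member whose response to BB2-282 was largest. Its levels were 8.61, 8.44 and 8.32 with BB2-125, 8.66, 8.63 and 9.04 with BB2-162 and 9.66, 9.88 and 9.65 with BB2-282, against 8.80, 8.65 and 9.11 in the hypoxic vehicle and 7.52, 7.63 and 7.75 in normoxia. The BB2-282 arrays lay above all others and the normoxic arrays below all others. Hypoxia raised MNT 2.33-fold (1.22 ± 0.13, adjusted p = 2.50e-07). BB2-282 raised it a further 1.83-fold over the hypoxic vehicle (0.87 ± 0.13, adjusted p = 2.50e-04), the 239th largest change of 16005 genes in that comparison. With BB2-125 it fell by 0.40 ± 0.13 (adjusted p = 0.0302), and with BB2-162 the difference was -0.08 ± 0.13 (adjusted p = 0.654; -0.02 without BB2-162 replicate 1). The BB2-125 call was lost without hypoxic vehicle replicate 1 (adjusted p = 0.0518) or 3 (0.167) or BB2-125 replicate 2 (0.0735) or 3 (0.131).

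MLX, the hub of the glucose-sensing branch, was lower with BB2-282 and BB2-162 than in the hypoxic vehicle. Its levels were 9.56, 9.66 and 9.51 with BB2-125, 9.33, 8.98 and 8.69 with BB2-162 and 8.80, 8.86 and 8.92 with BB2-282, against 9.38, 9.57 and 9.28 in the hypoxic vehicle and 9.16, 8.93 and 8.96 in normoxia. The BB2-282 arrays lay below all vehicle arrays, and the BB2-162 arrays ran from below the normoxic range into the hypoxic one. BB2-282 lowered MLX by -0.55 ± 0.13 (adjusted p = 0.0088), a call lost without hypoxic vehicle replicate 2 (0.0531). BB2-162 lowered it by -0.41 ± 0.13 (adjusted p = 0.0221; -0.58, adjusted p = 7.97e-04, without BB2-162 replicate 1). That call was lost without hypoxic vehicle replicate 2 (0.102) or BB2-162 replicate 2 (0.0566) or 3 (0.144). BB2-125 differed by 0.17 ± 0.13 (adjusted p = 0.404). Hypoxia alone raised MLX by 0.39 ± 0.13 (adjusted p = 0.0163), a call lost without normoxic vehicle replicate 2 (0.0642) or 3 (0.0535) or hypoxic vehicle replicate 2 (0.0736). Against normoxia MLX was higher with BB2-125 by 0.56 ± 0.13 (adjusted p = 0.00128), a call that held under each of the 15 alternatives. It did not pass against normoxia with BB2-162 (-0.02 ± 0.13, adjusted p = 0.912; -0.18 without BB2-162 replicate 1) or BB2-282 (-0.16 ± 0.13, adjusted p = 0.297).

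MGA, a large protein that pairs with MAX inside a Polycomb repressor complex, was the member that fell in hypoxia. Its levels were 6.11, 6.17 and 6.13 with BB2-125, 6.66, 6.12 and 6.14 with BB2-162 and 6.66, 6.77 and 7.02 with BB2-282, against 6.78, 7.03 and 6.84 in the hypoxic vehicle and 7.12, 7.71 and 7.57 in normoxia. The BB2-125 arrays and 2 of the BB2-162 arrays lay below every other array, and BB2-162 replicate 1 lay level with the lowest BB2-282 array. MGA was lower in hypoxia by -0.58 ± 0.16 (1.50-fold, adjusted p = 0.00377). It was lower still with BB2-125 (-0.75 ± 0.16, 1.68-fold, adjusted p = 0.00111) and with BB2-162 (-0.58 ± 0.16, adjusted p = 0.00807; -0.75 without BB2-162 replicate 1), and with BB2-282 it differed from the hypoxic vehicle by -0.07 ± 0.16 (adjusted p = 0.858). Against normoxia it was 2.52-fold lower with BB2-125 and 2.23-fold lower with BB2-162 (adjusted p = 6.41e-07 and 2.95e-06), and the BB2-162 change was -1.33 on the log2 scale without BB2-162 replicate 1.

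**Figure D2:**
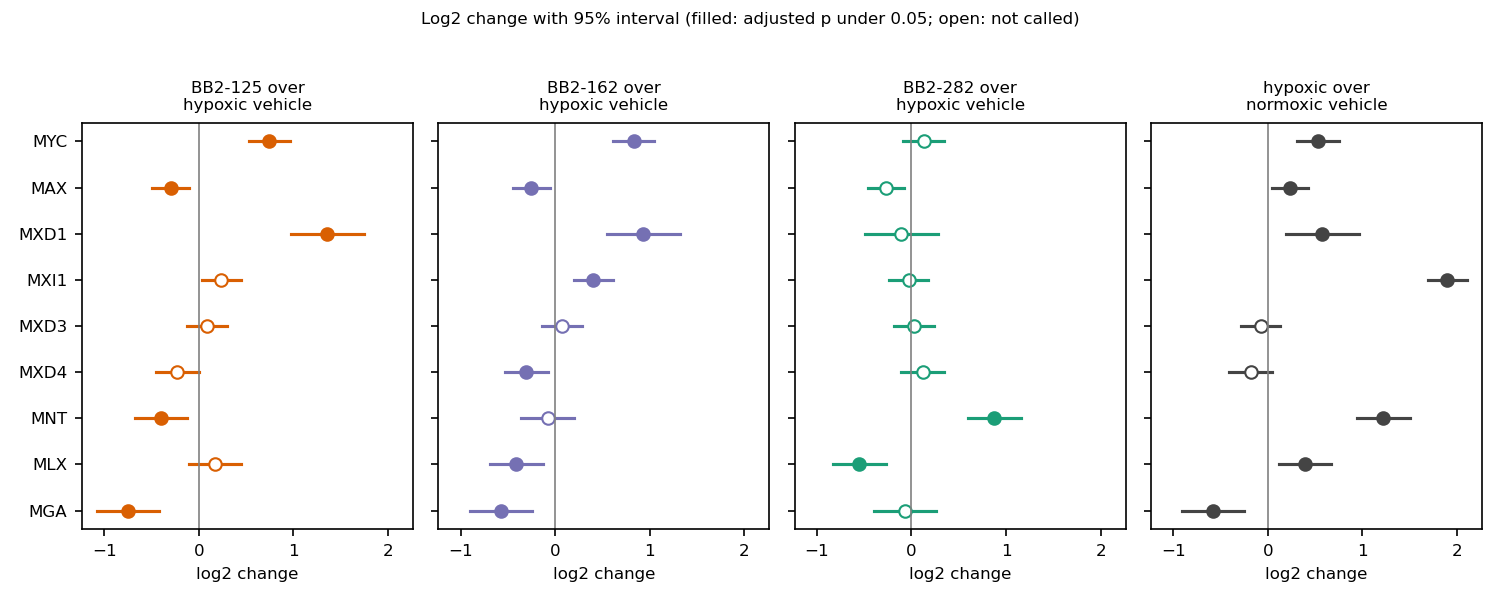
Log2 change (horizontal axis) of each member with its 95% interval for each compound over the hypoxic vehicle and for the hypoxic over the normoxic vehicle; filled points were called at an adjusted p under 0.05 and open points were not. MYC and MXD1 lie right of 0 and MGA left of 0 with BB2-125 and BB2-162, while with BB2-282 only MNT and MLX are filled.

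The compounds were next set against each other at the same dose and time, in 3 pairs that hold no vehicle array. BB2-125 and BB2-162 differed in 1 of the 9 members, against 26.1% of all genes tested (16.7% higher, 9.43% lower), and that member was MLX, higher with BB2-125 by 0.58 ± 0.13 (adjusted p = 0.00333; 0.74 without BB2-162 replicate 1). For MYC the difference of BB2-125 from BB2-162 was -0.08 ± 0.10, with a 95% interval of -0.30 to 0.13 (-0.06 without BB2-162 replicate 1). For MGA it was -0.17 with an interval of -0.50 to 0.15, but 0.0024 without BB2-162 replicate 1. MXD1 (0.43 ± 0.18, adjusted p = 0.0935, interval 0.04 to 0.81) and MNT (-0.32 ± 0.13, adjusted p = 0.0814, interval -0.60 to -0.04) did not pass with all arrays, but both passed without BB2-162 replicate 1, at 0.72 (adjusted p = 6.69e-04) and -0.38 (adjusted p = 0.0471), so that 3 members were then called.

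BB2-125 against BB2-282 differed in 7 of 9 members, against 36.3% of all genes (18.7% higher, 17.6% lower): MYC (0.62 ± 0.10, adjusted p = 1.04e-04), MXD1 (1.47 ± 0.18, adjusted p = 4.47e-06), MLX (0.72 ± 0.13, adjusted p = 2.42e-04) and MXI1 (0.26 ± 0.10, adjusted p = 0.0436) were higher with BB2-125, and MNT (-1.27 ± 0.13, adjusted p = 5.37e-07), MGA (-0.68 ± 0.16, adjusted p = 0.00175) and MXD4 (-0.35 ± 0.11, adjusted p = 0.0173) were lower. The MXI1 call was lost without BB2-125 replicate 1 (adjusted p = 0.104), 2 (0.131) or 3 (0.0501) or BB2-282 replicate 2 (0.118) or 3 (0.137), after median centring (0.0607) or quantile normalization (0.0571) and with the replicate block (0.0612), and the MXD4 call without BB2-125 replicate 2 (0.0584) or 3 (0.056) or BB2-282 replicate 1 (0.103) or 2 (0.0571). Leaving out any 1 array of these 2 groups left 5 to 6 members called instead of 7. BB2-162 against BB2-282 differed in 6 of 9, against 35.8% (15.6% higher, 20.3% lower): MYC (0.70 ± 0.10, adjusted p = 3.68e-05), MXD1 (1.04 ± 0.18, adjusted p = 2.30e-04) and MXI1 (0.43 ± 0.10, adjusted p = 0.00218) were higher with BB2-162, and MNT (-0.95 ± 0.13, adjusted p = 1.95e-05), MXD4 (-0.42 ± 0.11, adjusted p = 0.00522) and MGA (-0.51 ± 0.16, adjusted p = 0.0162) were lower. Without BB2-162 replicate 1 the MXD1 difference was 0.75 (adjusted p = 2.97e-04) and that of MGA -0.68 (adjusted p = 0.00123), those of MYC, MXI1, MNT and MXD4 were 0.67, 0.40, -0.89 and -0.38, and 6 members were again called. The MGA call was lost without BB2-162 replicate 2 (0.0799) or 3 (0.0743) or BB2-282 replicate 3 (0.0894). MAX (interval -0.18 to 0.21) and MLX (0.14, interval -0.14 to 0.42; -0.03 without BB2-162 replicate 1) did not pass between BB2-162 and BB2-282. The labels name no structural difference between the 3 compounds.

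**Figure D3:**
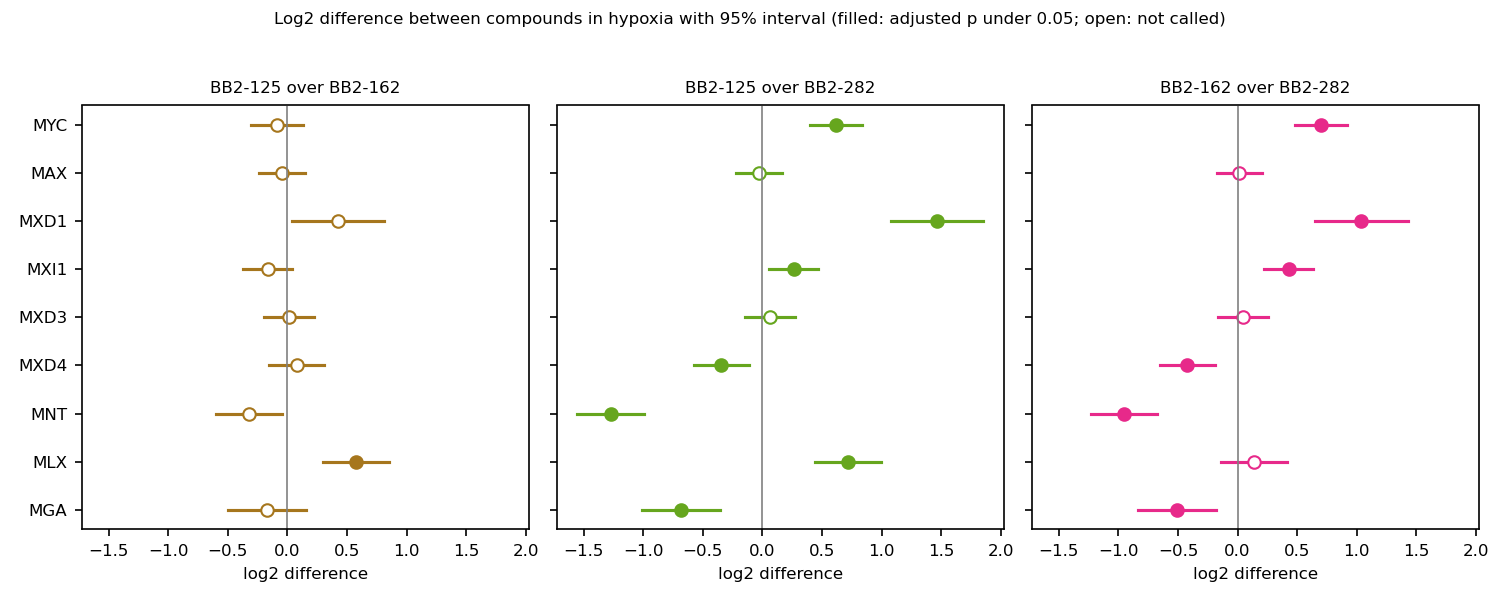
Log2 difference (horizontal axis) of each member between compounds in hypoxia, with its 95% interval; filled points were called at an adjusted p under 0.05. Between BB2-125 and BB2-162 only MLX is filled, whereas against BB2-282 both compounds have higher MYC, MXD1 and MXI1 and lower MNT, MXD4 and MGA.

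Ordered by level, MYC ran BB2-162, BB2-125, BB2-282, hypoxic vehicle, normoxic vehicle from high to low. Neighbours in that order differed between BB2-125 and BB2-282 and between the hypoxic and normoxic vehicles; BB2-162 and BB2-125 did not differ beyond their spread, nor did BB2-282 and the hypoxic vehicle. MXI1 ran in the same order except that the hypoxic vehicle stood above BB2-282, and among its neighbours only BB2-282 and normoxia differed. MXD1 ran BB2-125, BB2-162, hypoxic vehicle, BB2-282, normoxic vehicle, with steps between BB2-162 and the hypoxic vehicle and between BB2-282 and normoxia. MNT ran BB2-282, hypoxic vehicle, BB2-162, BB2-125, normoxic vehicle, with steps after the first and before the last. MGA ran from normoxia through the hypoxic vehicle, BB2-282 and BB2-162 to BB2-125, with steps after normoxia and between BB2-282 and BB2-162. MLX ran BB2-125, hypoxic vehicle, normoxic vehicle, BB2-162, BB2-282, and MAX ran hypoxic vehicle, normoxic vehicle, BB2-162, BB2-282, BB2-125; in both the step lay between the hypoxic and normoxic vehicles. No neighbours differed for MXD4 or MXD3. These orders use all arrays. Without BB2-162 replicate 1, BB2-125 also differed from BB2-162 for MXD1 (0.72, limma adjusted p = 6.69e-04) and MNT (-0.38, adjusted p = 0.0471). BB2-162 then stood just below BB2-282 for MLX (-0.03) and MAX (-0.02), neither of them called. For MGA, BB2-125 and BB2-162 were then level (0.0024).

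For the 5 members whose group means spanned at least 1 on the log2 scale, the genes with the most similar centred profile over the 5 group means were sought among all genes tested, by root mean square difference. MYC, with a span of 1.36, was most like BEX2 (0.02), GPR3 (0.06) and SPTY2D1 (0.07). MXI1, with a span of 2.30, was most like JMJD6 (0.07), a hydroxylase of the nucleus, DUSP1 (0.10), a phosphatase of MAP kinases, and the small nucleolar RNA gene SNORD81 (0.10). MXD1, with a span of 1.93, was most like SNORD79 (0.11), SNORD78 (0.14) and PCGF1 (0.16), a Polycomb subunit gene. MNT, with a span of 2.10, was most like SNORA20 (0.08), KCNMA1 (0.10) and SLCO4A1 (0.10). MGA, with a span of 1.33, was most like PDPK1 (0.04), a kinase that activates AKT, RAB18 (0.05) and EIF3B (0.06). The median span of all genes tested was 0.67.

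Textbook targets of MYC fell more often than they rose in hypoxia, while MYC itself rose. Of 53 tested genes that MYC is known to activate, 37 fell, 7 rose and 9 did not pass in the hypoxic against the normoxic vehicle, with a median change of -0.67 against 0.09 over all genes tested, of which 29.4% fell and 28.2% rose. RRS1, a ribosome assembly factor (-2.28 ± 0.11), PHB1, a mitochondrial scaffold gene (-2.05 ± 0.11), and SHMT1, of one-carbon metabolism (-2.55 ± 0.14), fell, while IMPDH2, of guanine nucleotide synthesis (1.11 ± 0.10), ODC1, of polyamine synthesis (0.80 ± 0.11), and SHMT2 (0.52 ± 0.12) rose. With BB2-125 20 rose and 2 fell (median 0.17, against 0.02 over all genes, of which 13.3% rose and 15% fell), among them SLC3A2, an amino acid transporter subunit (1.12 ± 0.12), PPAT, of purine synthesis (0.97 ± 0.12), and CTPS1, of CTP synthesis (0.93 ± 0.12), as rises and SLC7A5 (-0.84 ± 0.11) and ODC1 (-0.55 ± 0.11) as falls. With BB2-162 11 rose and 12 fell (median 0.02, against 0.06 over all genes, of which 15.7% rose and 20.4% fell), with RRS1 (0.78 ± 0.11), TFAM (0.60 ± 0.09) and AMD1 (0.74 ± 0.13) higher and MCM5 (-0.67 ± 0.10), CDK4 (-0.84 ± 0.13) and RCL1 (-0.54 ± 0.10) lower; without BB2-162 replicate 1 the counts were 11 and 17. With BB2-282 2 rose, CTPS1 (0.82 ± 0.12) and SLC7A5 (0.44 ± 0.11), and 10 fell (median -0.15, against 0.02 over all genes, of which 5.65% rose and 7.94% fell), led by RCL1 (-0.61 ± 0.10), TFRC, the transferrin receptor gene (-0.89 ± 0.15), and HSPE1 (-0.73 ± 0.13). Between BB2-125 and BB2-282, 30 of the 53 were higher and 3 lower with BB2-125, against 18.7% and 17.6% of all genes.

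Of 8 genes that MYC is known to repress, 5 rose and 1 fell in hypoxia, against 28.2% and 29.4% of all genes. NDRG1, also a HIF target, rose by 4.15 ± 0.09, the stress factor gene DDIT3 by 3.31 ± 0.13 and the cell cycle inhibitor gene CDKN1A by 1.80 ± 0.11, and NDRG2 fell by 1.27 ± 0.11. With BB2-125 (13.3% and 15% of all genes) 2 rose, GADD45A (1.41 ± 0.13) and DDIT3 (1.21 ± 0.13), and 3 fell, CDKN1B (-0.82 ± 0.12), NDRG1 (-0.32 ± 0.09) and NDRG2 (-0.32 ± 0.11). With BB2-162 (15.7% and 20.4%) 3 rose, GADD45A (0.66 ± 0.13), CEBPA (0.54 ± 0.11) and CDKN2B (0.37 ± 0.11), and 2 fell, CDKN1B (-0.48 ± 0.12) and NDRG2 (-0.33 ± 0.11); without BB2-162 replicate 1 the counts were 3 and 1. With BB2-282 (5.65% and 7.94%) CDKN1B alone was called (-0.71 ± 0.12). The median change of these 8 genes was 1.02 in hypoxia and -0.06, 0.18 and -0.04 with BB2-125, BB2-162 and BB2-282, against 0.09, 0.02, 0.06 and 0.02 over all genes tested.

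**Figure D4:**
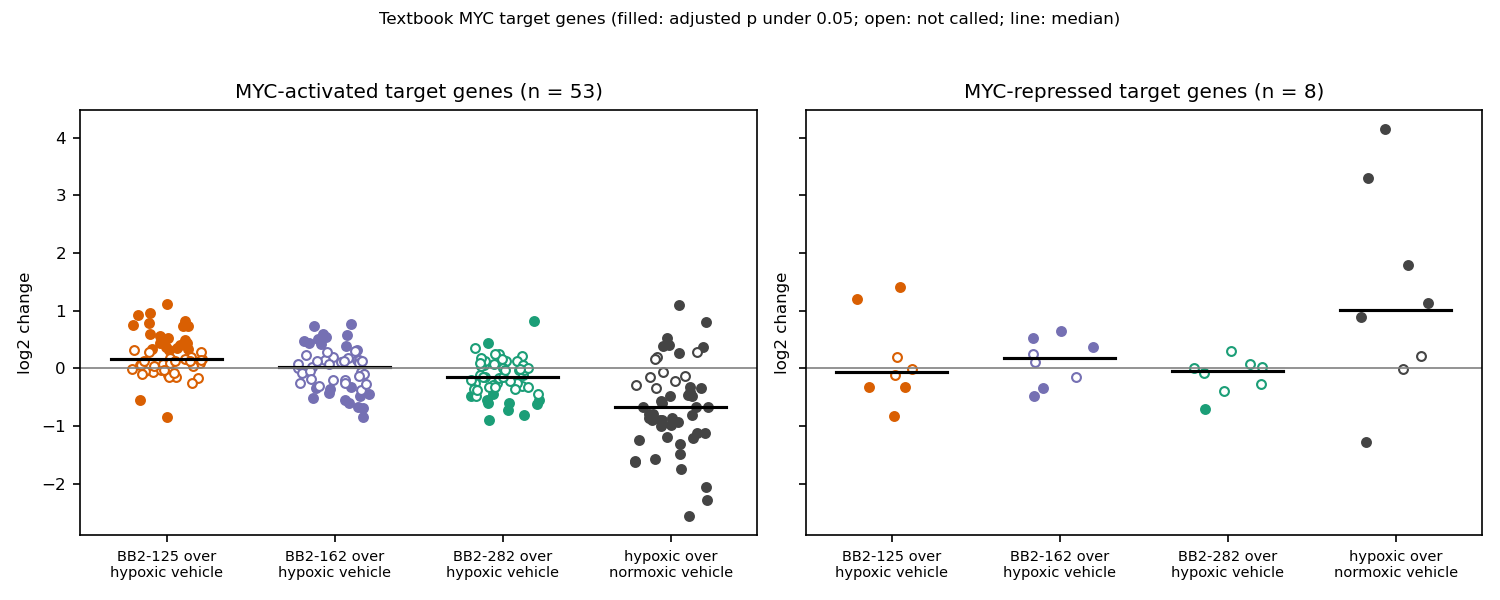
Log2 change (vertical axis) of 53 MYC-activated and 8 MYC-repressed textbook targets for each compound over the hypoxic vehicle and for the hypoxic over the normoxic vehicle; each point is a gene, filled where called, and the line is the median. In hypoxia most activated targets lie below 0 (median -0.67), whereas with BB2-125 20 are called higher and 2 lower.

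Of the other MYC genes and the partners of MLX, 1 of 4 fell in hypoxia (29.4% of all genes), and 2 of 4 rose with BB2-162 (15.7% of all genes). MYCN did not pass in hypoxia (0.02 ± 0.10), with BB2-125 (0.21 ± 0.10) or with BB2-282 (0.19 ± 0.10) and rose with BB2-162 (0.42 ± 0.10, adjusted p = 0.00345). MYCL did not pass in hypoxia (0.22 ± 0.13) or with BB2-125 (0.11 ± 0.13), BB2-162 (0.26 ± 0.13) or BB2-282 (0.22 ± 0.13). MLXIP fell in hypoxia by 0.47 ± 0.14 (adjusted p = 0.00825), and did not pass with BB2-125 (-0.18 ± 0.14), BB2-162 (0.23 ± 0.14) or BB2-282 (0.31 ± 0.14) against the hypoxic vehicle. MLXIPL rose with BB2-162 by 0.34 ± 0.11 (adjusted p = 0.0225) and did not pass in hypoxia (-0.19 ± 0.11) or with BB2-125 (0.18 ± 0.11) or BB2-282 (0.17 ± 0.11). Without BB2-162 replicate 1, 3 of these 4 genes were called higher with BB2-162, against 2 with all arrays. Of 4 targets of MLX heterodimers, TXNIP, an inhibitor of glucose uptake (-1.37 ± 0.11), and ARRDC4 (-0.50 ± 0.17) fell in hypoxia and KLF10 rose (0.64 ± 0.11). Of all genes 29.4% fell and 28.2% rose in hypoxia. KLF10 also rose with BB2-125 (1.05 ± 0.11) and BB2-162 (1.89 ± 0.11), whereas TXNIP (0.01, 0.10 and -0.08 with BB2-125, BB2-162 and BB2-282) and ARRDC4 (0.07, 0.26 and 0.10) did not pass against the hypoxic vehicle. Thus 1 of the 4 was called higher with each of BB2-125 and BB2-162, where 13.3% and 15.7% of all genes rose. The BB2-162 count was the same without BB2-162 replicate 1.

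Of 11 genes for cofactors that bind MYC, 6 fell and 0 rose in hypoxia by limma (6 and 0 also at an unadjusted p under 0.05), where 29.4% of all genes fell and 28.2% rose. The falls included RUVBL1, a helicase of chromatin remodelling complexes (-2.56 ± 0.13), SMARCB1 (-1.18 ± 0.10) and ACTL6A (-1.17 ± 0.13). With BB2-125 5 rose, led by SMARCB1 (0.68 ± 0.10) and KAT5, an acetyltransferase (0.52 ± 0.10), and 3 fell, BPTF (-0.68 ± 0.19), the scaffold gene TRRAP (-0.60 ± 0.16) and EP400 (-0.56 ± 0.16). With BB2-162 3 rose, KAT5 (0.56 ± 0.10), ZBTB17 (0.40 ± 0.10) and KAT2A (0.39 ± 0.13), and 3 fell, BPTF (-1.06 ± 0.19), TRRAP (-0.56 ± 0.16) and RUVBL1 (-0.40 ± 0.13), or 2 and 2 without BB2-162 replicate 1. With BB2-282 ACTL6A alone was called (-0.45 ± 0.13). For the cofactor and corepressor counts with BB2-125, BB2-162 and BB2-282, the shares of all genes that rose were 13.3%, 15.7% and 5.65% and of those that fell 15%, 20.4% and 7.94%. Of 6 tested corepressor genes, HDAC1 (-1.44 ± 0.10), HDAC2 (-0.54 ± 0.09) and SUDS3 (-0.25 ± 0.10) fell and SAP30 (0.51 ± 0.13) and SIN3B (0.29 ± 0.11) rose in hypoxia. With BB2-125 SAP30 (0.48 ± 0.13) and HDAC2 (0.30 ± 0.09) rose and SIN3B (-0.34 ± 0.11) and HDAC1 (-0.30 ± 0.10) fell. With BB2-162 SAP30 rose (0.52 ± 0.13) and SUDS3 fell (-0.47 ± 0.10), and the counts were the same without BB2-162 replicate 1. With BB2-282 limma called 0 of the 6 (2 lower at an unadjusted p under 0.05).

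In the Polycomb and stability lists the shares of all genes to be set beside the counts were again 28.2% higher and 29.4% lower in hypoxia, 13.3% and 15% with BB2-125, 15.7% and 20.4% with BB2-162 and 5.65% and 7.94% with BB2-282. Among 8 tested subunits of the Polycomb complex that holds MGA and MAX, RYBP rose (1.69 ± 0.11) and 4 fell in hypoxia, including the DNA-binding subunits TFDP1 (-2.54 ± 0.12) and E2F6 (-1.03 ± 0.12) and the reader L3MBTL2 (-0.67 ± 0.12). TFDP1 fell again with BB2-125 (-0.57 ± 0.12), BB2-162 (-1.19 ± 0.12) and BB2-282 (-0.49 ± 0.12). PCGF6, the subunit that defines this complex, rose with BB2-125 (0.71 ± 0.11) and BB2-162 (0.57 ± 0.11), as did E2F6 (0.41 ± 0.12 and 0.50 ± 0.12), and RYBP rose again with BB2-162 (0.65 ± 0.11). The BB2-162 counts, 3 higher and 1 lower, did not change without BB2-162 replicate 1. Of 11 genes that set MYC protein stability, 3 rose, a share near that of all genes, and 5 fell in hypoxia. AXIN1, a scaffold for MYC phosphorylation (0.89 ± 0.10), USP36, a nucleolar deubiquitinase (0.88 ± 0.11), and FBXW7, the ubiquitin ligase subunit that marks MYC for degradation (0.31 ± 0.09), rose, and the ligase subunit gene SKP2 (-2.60 ± 0.15), CIP2A (-2.56 ± 0.17) and STUB1 (-0.51 ± 0.09) fell. CIP2A lay near the dim level in the hypoxic vehicle (4.94 against 4.70), so the size of its fall in hypoxia is less firm. In this list BB2-125 had 3 rises, among them SKP2 (0.56 ± 0.15) and SET (0.46 ± 0.11), and 1 fall, AXIN1 (-0.38 ± 0.10). BB2-162 had 2 rises, USP37 (0.47 ± 0.13) and USP28 (0.33 ± 0.12), and 5 falls, including HUWE1 (-0.70 ± 0.20) and STUB1 (-0.30 ± 0.09); CIP2A was also called but lay below the dim level there, so the size of its fall was not measured. Without BB2-162 replicate 1 the counts were 1 and 5. With BB2-282 limma called 0 of the 11 (1 higher and 1 lower at an unadjusted p under 0.05).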

How the data were processed

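The deposited table gave linear-scale intensities of 28869 probe sets on 15 arrays. The authors made these values with RMA, per the submitters' processing notes; its version and the genome build are not given in the sources used here. Its normalization between arrays assumes like distributions, so changes are relative to each array's other genes. The log2 was taken here. Of the probe sets, 19310 had 1 gene symbol; symbols were updated through the Entrez ID, and the probe set with the highest mean stood for each of 18377 genes. Genes not above an array's 25th percentile on at least 3 arrays were left out (2372). Groups, taken from the sample titles, were compared with limma 3.58.1 in R 4.3.3 in 1 fit of all 15 arrays (10 residual and 7.96 prior degrees of freedom), tested on simulated data, with Benjamini-Hochberg adjustment per comparison over 16005 genes.

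Members, lists and tests were chosen with earlier results of these data known. List genes named are up to 3 of lowest p each way in the 4 comparisons with the hypoxic vehicle, plus MYCN, MYCL, MLXIP, MLXIPL, TXNIP and ARRDC4. No 2 arrays were identical, and arrays of 1 group correlated at 0.985 to 0.996. Whether equal replicate numbers pair cultures was checked by correlation: same-number deviations from the group means correlated at 0.19 to 0.33 for hypoxic vehicle and BB2-125, and not all over 0.1 in the other 9 pairs of groups, so only the first met the criterion for pairs (all over 0.1). The reported fit has no block, and the block changed no member call between those groups. Alternatives were another scaling (median, quantile), dim filter, probe set rule, variance trend, array weights, the 2 groups alone, the replicate block and leaving out each array. Each member had 1 probe set, so the probe set rule left its values unchanged. The dim filter settings left the size of its changes unchanged and could move only p-values. List counts without BB2-162 replicate 1 were added after seeing the data. The number of arrays limits the precision.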

Additional observations from a re-analysis of the deposited data

How the results depend on the processing

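Over 90 results (9 members in 10 comparisons, 15 alternatives each), 53 were called, 38 of them under every alternative, and 31 were called under none. The other 15 calls were lost at least once, and 6 uncalled results were called at least once; the cause was not tested. Where a difference was called neither with nor without an alternative, a turn of its sign was not counted as a reversal. The 1 reversal was MLX in BB2-162 against the normoxic vehicle, at 0.26 after quantile normalization (adjusted p = 0.0472) against -0.02.

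Members called in BB2-162 against the hypoxic vehicle were 4 after quantile normalization and 4 in a fit of the 2 groups alone, which called 3494 genes against 5780. In BB2-125 against BB2-162 they were 3 after quantile normalization, with MXI1 (adjusted p = 0.025) and MNT (0.049) added. They were 3 with array weights, with MXD1 (0.00154) and MNT (0.0208) added, and the 2 groups alone called 2582 genes against 4182. Array weights called 4193 genes in BB2-282 against the hypoxic vehicle, against 2176. Among called genes, the higher ones made up 28.2% after median centring against 43.4% as reported in BB2-162 against the hypoxic vehicle, 74.4% against 63.9% in BB2-125 against BB2-162 (53.7% after quantile normalization) and 32.9% against 43.4% in BB2-162 against BB2-282. Over all genes, hypoxia's median change was 0.09, 0.05 after centring and 0.13 after quantile normalization. MAX in hypoxia lost its call after centring (adjusted p = 0.0899) and in the 2 groups alone (0.0642). Quantile normalization ended the calls of MNT with BB2-125 (0.0966) and of MAX (0.124), MXD4 (0.14) and MLX (0.0612) with BB2-162 against the hypoxic vehicle, and of MXD4 with BB2-125 (0.114) and BB2-162 (0.0599) against the normoxic vehicle, and of MXI1 in BB2-125 against BB2-282 (0.0571). Centring also ended the calls of that MXI1 difference (0.0607) and of MXD1 in BB2-282 against the normoxic vehicle (0.0828), array weights that of MXD4 with BB2-162 (0.0732), and the 2 groups alone those of MAX (0.133), MXD4 (0.104) and MLX (0.0956) with BB2-162.

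Leaving out 1 array in turn, members called ranged from 4 to 7 in hypoxia, 3 to 5 with BB2-125, 4 to 6 with BB2-162 and 1 to 2 with BB2-282 against the hypoxic vehicle, and 1 to 3 in BB2-125 against BB2-162. They ranged from 5 to 6 in BB2-125 against BB2-282 and from 5 to 6 in BB2-162 against BB2-282. Genes called ranged from 1222 to 2393 for BB2-282 (1222 without hypoxic vehicle replicate 1, 1352 without replicate 2, 1258 without BB2-282 replicate 2) and from 4067 to 7698 for BB2-162 against the hypoxic vehicle, and from 2645 (without BB2-162 replicate 3) to 6208 in BB2-125 against BB2-162. With the replicate number as a block, 1 member call changed: MXI1 in BB2-125 against BB2-282 (0.26, adjusted p = 0.0612). No member was at the dim level, and list genes near it are measured less firmly.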
